A study of Rattus norvegicus with 2 samples.

Results

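Astrocytes and radial glia, the progenitor cells of the developing cortex, were followed in cultures of rat cortical neurons through 8 marker genes: Gfap, Vim, Nes, Slc1a3, Slc1a2, Glul, Aqp4 and S100b. The genes were chosen by name as cell type markers, with earlier results of these data known, and all 8 identifiers were found among the 16756 genes counted. Cultures were made from the bilateral cortex of Sprague Dawley rat fetuses at E18, after the meninges had been taken off, and neither a transgene nor a sort for neurons is described. One group received CDH12 siRNA, a duplex against the transcript of the adhesion protein Cadherin-12, and the other NC siRNA, the universal control duplex. Both were treated for 36 h, and each treatment was represented by 1 sequenced library, with no replicate. Both cultures had been plated in medium with fetal bovine serum and moved to Neurobasal with B27 within hours, and the siRNA was delivered by electroporation.

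The 15500488 reads of the NC siRNA library and the 13699612 reads of the CDH12 siRNA library were recovered from normalized counts, which are reads divided by 1 size factor per library. A difference is given as log2(normalized count + 1) of the CDH12 siRNA library minus that of the NC siRNA library. Without replicates, a difference can stem from the siRNA, the culture or the library preparation, and these cannot be told apart. Intervals of a log2 difference are 95% Wilson intervals for the split of the reads between the libraries, scaled by the size factors without a pseudocount. Intervals of a share or level are 95% Wilson intervals for its reads among all reads of the library. These intervals cover counting error only, because 1 library per treatment leaves no spread between replicates. Reads from amplified libraries are not independent molecules, so the intervals can be too narrow even for counting error. The deposited tables hold Ensembl identifiers alone, and the gene table at hand matched 0 of them. The 8 symbols come from a list that pairs them with identifiers, whereas CDH12 itself and markers of neurons, microglia, oligodendrocytes and vessels were not analyzed here. The knockdown and the labelled cell type were therefore not checked in these libraries.

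Radial glia line the ventricles of the embryonic cortex, produce neurons first and glia later, and carry the filament proteins Vimentin and Nestin. As the astrocyte lineage matures, Nestin is lost, GFAP filaments appear, and the machinery that clears glutamate and moves water is built up. In rodents, most cortical astrocytes form around and after birth, so cultures prepared before birth and kept in Neurobasal with B27 hold mainly neurons and some glia or progenitors.

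Gfap and Vim belong to the same filament family but gave different results below, and a link to their promoter sequence was not tested. The 250 bases before their annotated start sites are shown for reference. They come from RefSeq, build GRCr8, which is not known to be the build of the deposited counts. The Gfap promoter lies at chr10:88361662-88361911 on the minus strand and the Vim promoter at chr17:81577011-81577260 on the plus strand. Capitals mark matches on either strand to 5 short motifs. The core letters searched were TATAAA for the TATA element of basal promoters. For the box bound by NF-Y they were CCAAT. For the GC box of Sp-type factors they were GGGCGG. For the half-site of the cAMP response element, bound by CREB, they were TGACG. For STAT factors, which act on astrocyte genes, they were TTCNNNGAA.
Gfap: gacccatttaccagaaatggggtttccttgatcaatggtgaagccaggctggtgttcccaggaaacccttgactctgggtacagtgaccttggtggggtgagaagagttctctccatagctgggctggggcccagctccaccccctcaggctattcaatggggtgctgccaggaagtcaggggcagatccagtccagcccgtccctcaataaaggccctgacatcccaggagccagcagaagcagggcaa
Vim: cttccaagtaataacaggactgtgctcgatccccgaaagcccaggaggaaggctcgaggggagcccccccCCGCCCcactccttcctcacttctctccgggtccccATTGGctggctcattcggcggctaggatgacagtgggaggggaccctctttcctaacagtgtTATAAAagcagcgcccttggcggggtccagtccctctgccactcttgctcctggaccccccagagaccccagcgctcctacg
The Vim window held 1 TATA box starting 82 bases before the start site, 1 CCAAT box at 144 bases and 1 GC box at 180 bases, with no overlap among them. In the Gfap window none of the 5 motifs was found, which says only that these letters are not in this window. Among 33469 RefSeq promoter windows of this length, 12.9% held the TATA box, 34.0% the CCAAT box, 30.5% the GC box, 18.2% the half-site and 7.67% the STAT site. All 8 genes had a window in the table, 13 in total because some have several start sites, and neither the half-site nor the STAT site was found in any of the 13. None of the 5 motifs was found in 7 of the 13 windows, namely that of Gfap, all 3 of Slc1a3, both of Slc1a2 and 1 of Aqp4. The other 6, of Vim, Nes, Glul, Aqp4 and S100b, held a CCAAT box, a GC box or both, and the TATA box was found in that of Vim alone.

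All 8 genes were read in both libraries, from 29 reads of Slc1a2 to 6461 reads of Vim, against the 3 reads taken as the floor of detection. Together they took 14403 NC siRNA reads and 13382 CDH12 siRNA reads. This was 0.0929% (95% Wilson interval from 0.0914% to 0.0944%) and 0.0977% (from 0.0960% to 0.0993%) of the reads. The summed normalized reads were 4.24% higher in the CDH12 siRNA library, a log2 difference of 0.060 (interval from 0.026 to 0.094). Without Gfap the difference of the other 7 genes was 0.011 (from -0.026 to 0.048). Gfap was left out because it had the highest difference, so a smaller sum was fixed by that choice, and higher and lower values of the other genes offset each other in it. These shares describe RNA and not cells: in a bulk library, fewer cells of a type and less RNA per cell cannot be told apart. Transcript lengths were not used here, so the genes are compared between libraries and not ranked among themselves.

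**Figure D1:**
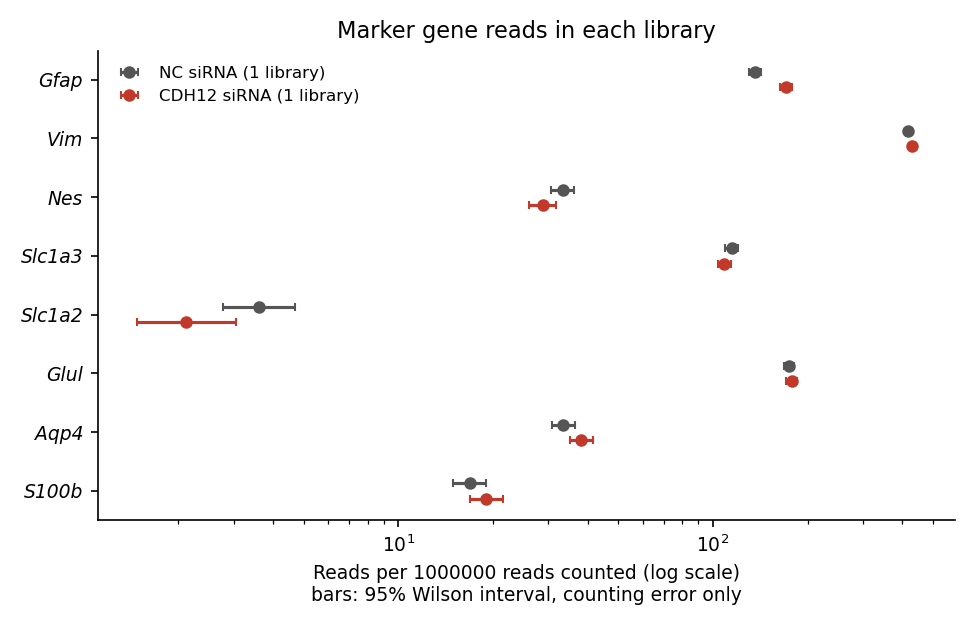
Reads per 1000000 reads counted (log axis) of each marker gene in the NC siRNA library (grey) and the CDH12 siRNA library (red), with 95% Wilson intervals for counting error. The intervals of Gfap stand clear of each other, while those of the other 7 genes overlap, and levels of different genes are not scaled to length and should not be compared.

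Of the 8 genes, 0 differed by more than 2-fold, the fold limit of the study, where 1.92% of the 13317 genes that had 20 or more reads in both libraries combined did. Beyond 1.5-fold there was 1 of the 8, Slc1a2, against 6.17% of those genes. Gfap, Aqp4, S100b, Vim and Glul had higher values and Nes, Slc1a3 and Slc1a2 lower values in the CDH12 siRNA library. The counting interval excluded no difference for 4 of the 8, Gfap and Aqp4 on the higher side and Nes and Slc1a2 on the lower side. Among those 13317 genes it did so for 23.7%, 10.8% higher and 12.9% lower, so counting error is smaller than the spread between these libraries for many genes. The median difference of the 8 genes was 0.028, beside -0.0030 over the 13317 genes, and the median size of the difference was 0.17 beside 0.11.

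**Figure D2:**
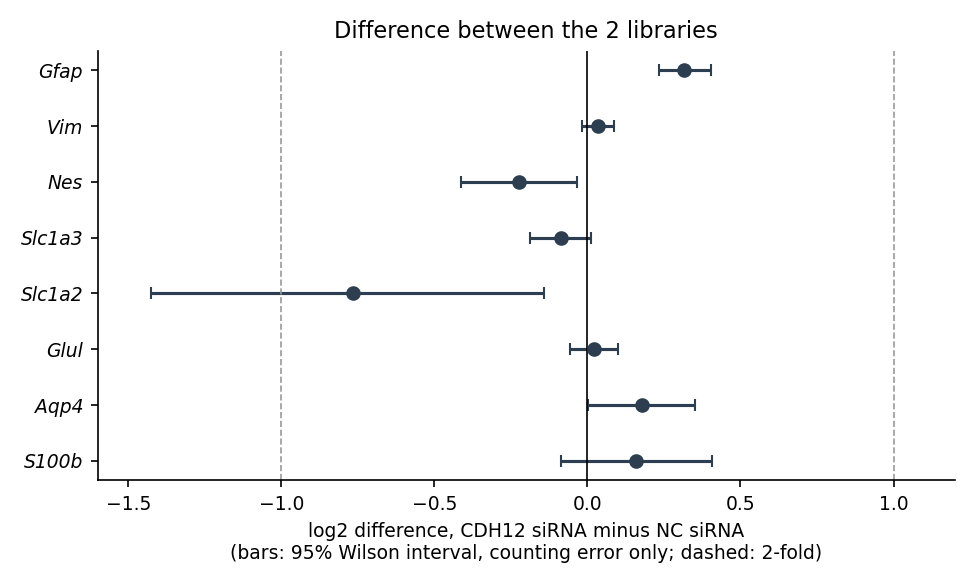
Log2 difference of normalized counts (CDH12 siRNA minus NC siRNA) for each marker gene, with 95% Wilson intervals for counting error and dashed lines at 2-fold. Gfap lies highest at 0.32 and Slc1a2 lowest at -0.76, and the points of all 8 genes stay inside the 2-fold lines.

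Of the 3 intermediate filament genes, Gfap was higher, Nes lower and Vim nearly level. Gfap (ENSRNOG00000002919) encodes a filament protein used as an astrocyte marker and had 2108 NC siRNA reads and 2341 CDH12 siRNA reads. This is 1990 and 2480 normalized counts, 24.6% more in the CDH12 siRNA library. The log2 difference was 0.32 (interval from 0.23 to 0.40), the highest of the 8 genes. Vim (ENSRNOG00000018087) encodes Vimentin, the filament protein of radial glia, immature astrocytes and mesenchymal cells. It had 6461 and 5899 reads, or 6100 and 6248 normalized counts, a log2 difference of 0.035 (from -0.016 to 0.086). Despite the most reads of the 8 genes, its interval therefore included no difference. Nes (ENSRNOG00000018681) encodes Nestin, the filament protein of neural progenitors. It had 516 and 394 reads, or 487 and 417 normalized counts, a log2 difference of -0.22 (from -0.41 to -0.034). The normalized counts of Gfap were thus higher and those of Nes lower in the same library. Together the 3 filament genes took 0.0586% of the NC siRNA reads and 0.0630% of the CDH12 siRNA reads, a log2 difference of 0.093 (from 0.050 to 0.14). Of the 3, only Gfap had an interval above no difference, so the higher sum rests on Gfap.

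The 3 genes of glutamate handling gave no common direction. Slc1a3 (ENSRNOG00000016163) encodes GLAST, the glutamate transporter that radial glia already carry. It had 1779 and 1492 reads, or 1680 and 1580 normalized counts, a log2 difference of -0.088 (from -0.19 to 0.011). Slc1a2 (ENSRNOG00000005479) encodes GLT-1, the main glutamate transporter of mature astrocytes, which appears later in development. It had 56 and 29 reads, or 52.9 and 30.7 normalized counts. Its log2 difference of -0.76 was the largest in size of the 8 genes and the least precise (from -1.43 to -0.14). Glul (ENSRNOG00000049560) encodes glutamine synthetase, which converts the glutamate taken up by astrocytes into glutamine. It had 2702 and 2443 reads, or 2551 and 2588 normalized counts, a log2 difference of 0.021 (from -0.058 to 0.10). Glul was the gene with the smallest difference of the 8. Summed over the 3 genes, the share of reads was 0.0293% and 0.0289%, with an interval of the log2 difference from -0.090 to 0.033.

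The remaining genes, Aqp4 and S100b, both had somewhat higher values in the CDH12 siRNA library. Aqp4 (ENSRNOG00000016043) encodes the water channel of astrocyte endfeet. It had 519 and 523 reads, or 490 and 554 normalized counts, a log2 difference of 0.18 (from 0.0020 to 0.35), with a lower bound just above 0. S100b (ENSRNOG00000001295) encodes a calcium-binding protein of astrocytes. It had 262 and 261 reads, or 247 and 276 normalized counts, a log2 difference of 0.16 (from -0.087 to 0.41). The read numbers of both genes were almost the same in the libraries, and their differences come from the size factors, since the CDH12 siRNA library had fewer reads in total.

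The size of these differences was then set beside genes of like read number. Among the 5704 genes with 1000 or more but under 10000 reads in both libraries combined, 92 (1.61%) differed by as much as Gfap in either direction. In the same class, 11.6% of the genes differed by as much as Aqp4, 39.2% by as much as Slc1a3 and 83.6% by as much as Glul. Among the 5111 genes with 100 or more but under 1000 reads, 31.4% differed by as much as Nes and 46.7% by as much as S100b. Slc1a2, although lowest, was matched or passed by 21.1% of the 2054 genes with 20 or more but under 100 reads, and Vim by 66.7% of the 448 genes with 10000 reads or more. The difference of Gfap was the only one of the 8 to lie outside the middle 95% of genes in narrower classes of read number. The middle 95% of the 745 genes between 3557 and 5019 reads ran from -0.22 to 0.16. For Slc1a2, with 85 reads, the class of 457 genes between 80 and 112 reads ran from -0.81 to 0.91, so its difference of -0.76 lay inside but close to the lower limit. The classes of read number were chosen after the values had been seen.

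**Figure D3:**
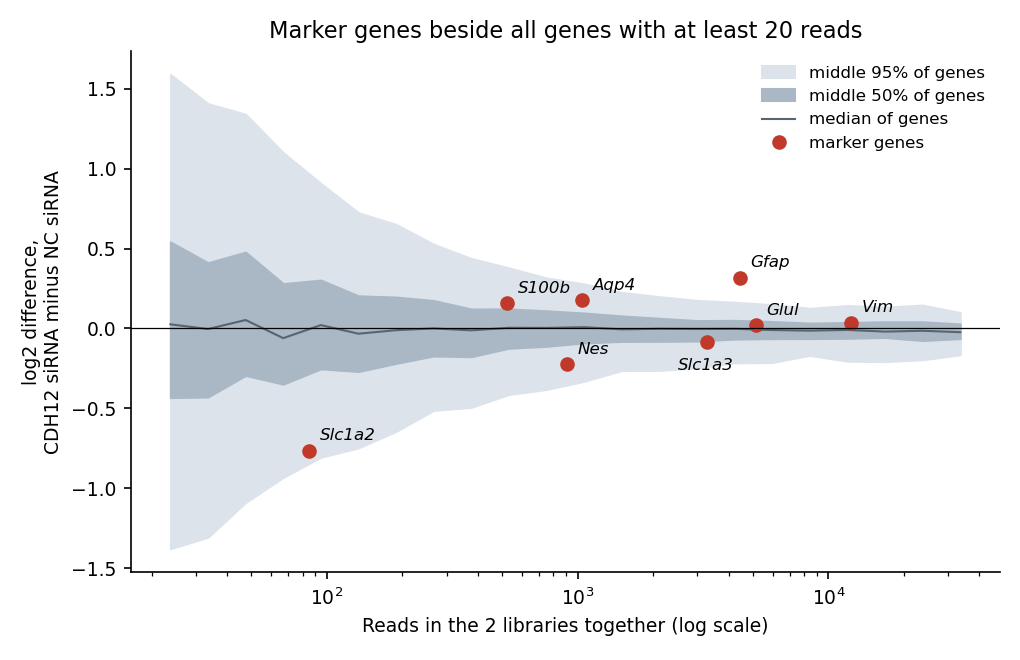
Log2 difference (CDH12 siRNA minus NC siRNA) against reads in both libraries combined (log axis), with bands for the middle 50% and 95% of genes counted 20 or more times and red points for the marker genes. Gfap lies above the 95% band, and the other 7 points lie inside it.

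edgeR's exact test on the recovered reads, with the spread estimated from both libraries treated as 1 group, compares these libraries and not the treatments. After Benjamini-Hochberg adjustment over all 16756 genes it called 39 genes (0.233%), and 0 of the 8 marker genes. At an unadjusted *P* below 0.05 it gave 1 of the 8, Gfap, against 3.98% of all genes. In this exact test Gfap had an unadjusted *P* of 0.00245 and an adjusted *P* of 0.417. With an assumed biological coefficient of variation of 0.2, the exact test gave Gfap an unadjusted *P* of 0.442, and 0 of the 8 genes stayed below 0.05, against 1.46% of all genes. The adjusted *P* of Gfap ranged from 0.277 to 1 under the other settings. DESeq2's Wald test also called 0 of the 8 after adjustment, among 14 genes (0.0836%), and gave 1 of the 8, Gfap, at an unadjusted *P* below 0.05, against 0.889% of all genes. The other 7 genes had an unadjusted *P* of 0.12 or more in the exact test.

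Ratios between marker genes within a library do not depend on how the libraries were scaled, so all 28 pairs were compared. Their 95% intervals are normal intervals on the log scale, with the variance taken as the sum of the reciprocals of the 4 read numbers of a pair. Gfap had 0.326 reads per read of Vim under NC siRNA and 0.397 under CDH12 siRNA, a log2 change of 0.28 (interval for counting error from 0.18 to 0.38). Against Slc1a3 the ratio went from 1.18 to 1.57, a log2 change of 0.41 (from 0.27 to 0.54). Relative to both of these genes, Gfap had more reads in the CDH12 siRNA library. Against Glul the change of the Gfap ratio was 0.30 (from 0.18 to 0.41), and against Nes, where the ratio went from 4.09 to 5.94, it was 0.54 (from 0.33 to 0.75). The ratios of Gfap to Aqp4 (0.14, from -0.055 to 0.33) and to S100b (0.16, from -0.10 to 0.42) had intervals that included no change. Aqp4 and S100b stood in a ratio of 1.98 and 2.00, with an interval of the log2 change from -0.29 to 0.32. Nes had 0.994 reads per read of Aqp4 under NC siRNA and 0.753 under CDH12 siRNA, a log2 change of -0.40 (from -0.66 to -0.14). Of the 28 pairs, 16 had intervals that excluded no change, including 5 of the 7 with Gfap, 5 of the 7 with Nes and 6 of the 7 with Slc1a2. Without Gfap it was 11 of 21 pairs. Over all pairs of the 13317 genes the share was 21.4%, at read numbers that differ from those of the marker genes, so the counts of pairs are a description only. The pairs share genes, and their intervals cover counting error and not the spread between cultures.

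**Figure D4:**
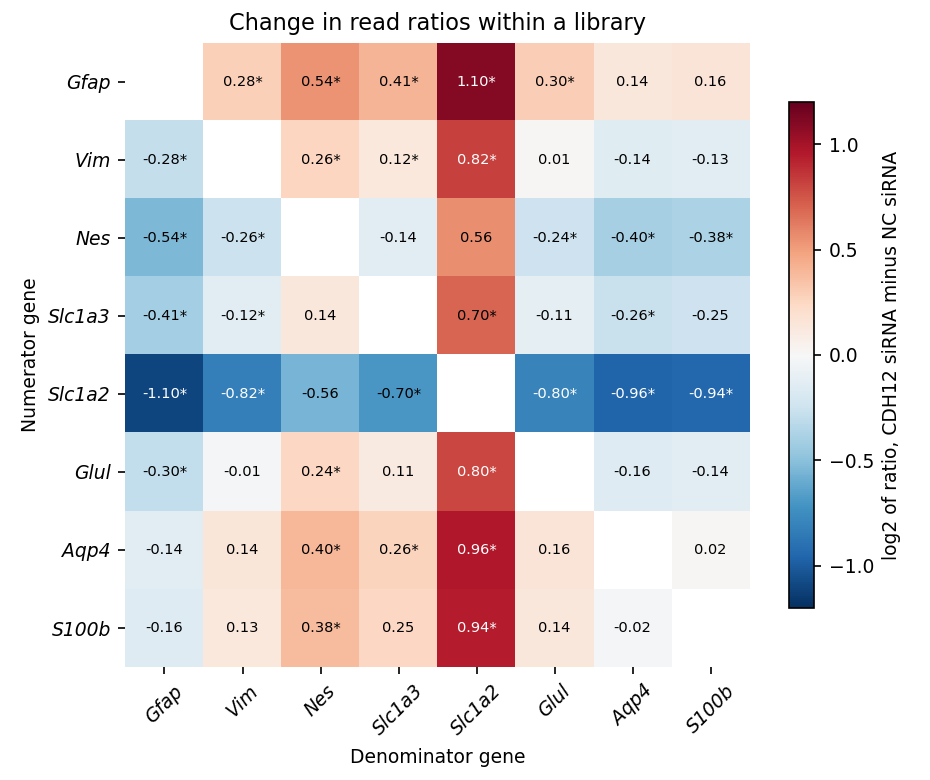
Log2 change of the read ratio of a row gene to a column gene within a library (CDH12 siRNA minus NC siRNA), with stars where the 95% counting interval excludes 0. The Gfap row runs from 0.14 against Aqp4 to 1.10 against Slc1a2. The signs of the Gfap and Slc1a2 rows follow from these genes having the highest and the lowest difference of the 8.

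Among the reads of the 8 genes, the makeup shifted by a few percentage points at most. Gfap took 14.6% of these reads under NC siRNA and 17.5% under CDH12 siRNA, whereas Vim took 44.9% and 44.1%. Nes took 3.58% and 2.94%, and Slc1a3 took 12.4% and 11.1%. Glul took 18.8% and 18.3%, Aqp4 3.60% and 3.91%, S100b 1.82% and 1.95%, and Slc1a2 0.389% and 0.217%.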

How the data were processed

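RNA from the cortical neurons was sequenced for the authors on a NextSeq500. The submitters' processing notes list cutadapt 1.15, HTSeq 0.9.1 and DESeq 1.30.0, and the paper names another HTSeq release. The deposited signal per gene is a normalized count, each library's reads scaled by a single size factor. The aligner, genome build, annotation and strand setting are not given in the sources used here.

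Dividing by the lowest value above 0 in a library gave its reads, and 100% came out whole within 0.001 reads (1 read was worth 0.944 and 1.06 normalized counts). The planned fallback for recovered reads was used. All 8 marker genes were named by rule, and the members and lists were chosen with earlier results of these data known. Planned lists of other cell types, CDH12 and levels per transcript length were not analyzed here, because identifiers and lengths could not be paired. Differences used a pseudocount of 1 and a minimum of 20 reads in both libraries combined. edgeR 4.0.16 (exact test, TMM) and DESeq2 1.42.0 (Wald test, fitted dispersion) were run in R 4.3.3 over genes with at least 1 read, and both were tested on simulated data. Intervals used scipy 1.17.1. At these depths, 3 reads are 1.94e-05% (NC siRNA) and 2.19e-05% (CDH12 siRNA) of the reads. Other scalings, pseudocounts, read minimums and dispersions were tried as alternatives.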

Additional observations from a re-analysis of the deposited data

How the results depend on the processing

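Pseudocounts of 0.1 and 5, total reads and edgeR's TMM gave 32 further values for the 8 differences. All 32 stayed within their counting intervals with the same sign, and none moved by more than 0.068. Total reads shifted the median of all genes by 0.012. Over 2-fold, the 8 genes numbered 0 under each of these settings, and a 1.5-fold limit gave 1. The 4 genes whose interval excluded no difference were also 4 in number with total reads and with TMM, settings added after the data were seen. The summed difference of 0.060 was 0.080 without Vim and 0.011 without Gfap, the latter also added later. The 256 background genes over 2-fold became 1777 at a minimum of 1 read, 31 at 100 reads and 141 with a pseudocount of 5. The 39 genes called by the exact test became 12 with an assumed coefficient of variation of 0.2 and 14 with DESeq2, while 0 of the 8 marker genes were called under any setting. For the genes over 2-fold, a read minimum only alters the set of genes counted. The exact test was also fitted anew at a minimum of 20 reads, and it then called 41 genes. The cause of the other changes was not tested. Depth limits Slc1a2 most, with 85 reads in the 2 libraries together. No paired analysis was possible because there was a single library of each kind, so no replicate could be left out either. Levels per transcript length were not run, since no transcript lengths were used here.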
